A study of Mus musculus with 8 samples.

Results

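The myogenic transcription factor network was followed through 9 genes in activated muscle stem cells (ASCs) with and without Mfn2. These are Pax7, Pax3, Myf5, Myod1, Myog, Myf6, Mef2a, Mef2c and Mef2d. They were taken by gene symbol, and all 9 were among the 18877 gene symbols measured. In skeletal muscle the paired-box factors Pax7 and Pax3 mark stem and progenitor cells. The basic helix-loop-helix (bHLH) factors Myf5 and Myod1 commit these cells to the muscle lineage, and their relatives Myog and Myf6 act later, when myoblasts leave the cell cycle and differentiate. MEF2 proteins bind DNA beside them and raise the transcription of muscle structural genes.

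The series compared RNA of ASCs from 4 wild-type and 4 mfn2-/- libraries of mice. In mfn2-/- animals a floxed Mfn2 allele, which encodes a fusion protein of the outer mitochondrial membrane, was deleted by the tamoxifen-dependent recombinase Cre (ERT2) under the control of Pax7. Per the labels, a fluorescent Dendra2 protein directed to mitochondria and dependent on the same driver was carried by all animals, and all received tamoxifen (75 mg/kg a day for 5 days) and an injection of barium chloride (50 uL at 1.2%) into the tibialis anterior muscle. Living (DAPI-negative) Dendra2+ CD34- cells were sorted 2 days after the injury, and the ages of the animals are not given in the sources used here. Dendra2 therefore marks cells that had Pax7 activity when tamoxifen was given, and their progeny. Whether each library is a separate animal is not stated, so p-values measure the spread between these libraries.

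The libraries held 1880464 to 7508215 reads in genes, so that 1 read was worth 0.534 to 2.27 normalized reads. Values below are normalized reads, the reads of a library divided by its size factor, and changes are differences of log2(normalized reads + 1), mfn2-/- minus wild-type. The targeted gene Mfn2 was at 229 ± 19.98 (SD, n = 4) in wild-type and 126 ± 31.4 in mfn2-/- libraries, with no overlap (two-sided exact permutation p = 0.0286, the smallest that 4 against 4 libraries can give). Replicates 3 and 4 of the wild-type and replicates 1 and 2 of the mfn2-/- group held reads of Y-linked genes (807 to 2336 reads) and the other 4 libraries held 0. In each group the libraries with Y-linked reads were the deeper pair. The gap between the nearest libraries was small in the mfn2-/- group (5115404 reads in replicate 2 with them and 5050798 in replicate 3 without). Depth and Y-linked reads cannot be told apart within either group. Changes of the factors are also given within each kind (2 against 2 libraries). Pax7, the defining stem cell factor, was present in all 8 libraries. Fibroadipogenic markers, genes of muscle connective tissue cells, summed to 4.90 to 6.52% of all normalized reads of a wild-type library and to 0.217 to 0.297% of a mfn2-/- library, and 13 of 18 were called lower. Tenocyte markers took 0.954 to 1.62% and 0.00736 to 0.0105%, and 10 of 10 were called lower. A list of 13 muscle stem cell markers with none of the 9 factors took 0.398 to 0.481% and 0.866 to 1.09%. Most of this rise lay in the 2 called higher, Sdc4 (mean 4271 to 17473) and Des (2156 to 7969). The other 11 were not called. Des, Cdh15, Fgfr4, Itga7 and Musk are also on the list of differentiation targets below, and Heyl and Msc on that of bHLH partners and inhibitors. Of the 13 changes 8 were positive, with a median of 0.26. Macrophage markers took at most 0.00400% in any library, and 0 of 9 endothelial markers were called (limma, adjusted p under 0.05). In RNA of a sorted population, fewer cells of a type and less RNA per cell cannot be told apart.

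Of the 9 factors, Myod1 alone passed the test across all genes, and it was higher in mfn2-/- ASCs. Myog had the largest change in the opposite direction and did not pass. The mean of 10 normalized reads that the test required was reached by 8 factors and missed by Myf6. Limma with Benjamini-Hochberg adjustment over 11754 genes called 1 of these 8 (12.5%), against 10.4% of all genes tested, of which 3.99% were higher and 6.36% lower. The 2 groups did not overlap for 1 of 8 factors, against 19.5% of all genes (7.36% with mfn2-/- higher). edgeR also called Myod1 alone of the 8 (adjusted p 0.000127, 9.85% of all genes), and DESeq2 called Myod1 and Myog (adjusted p 1.69e-12 and 0.0164, 14.8% of all genes). The median change of the 8 factors was 0.09, beside -0.16 over all genes. The shares of factors called and of factors without overlap were thus near or below those of other genes, and the differences lay in single members.

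**Figure D1:**
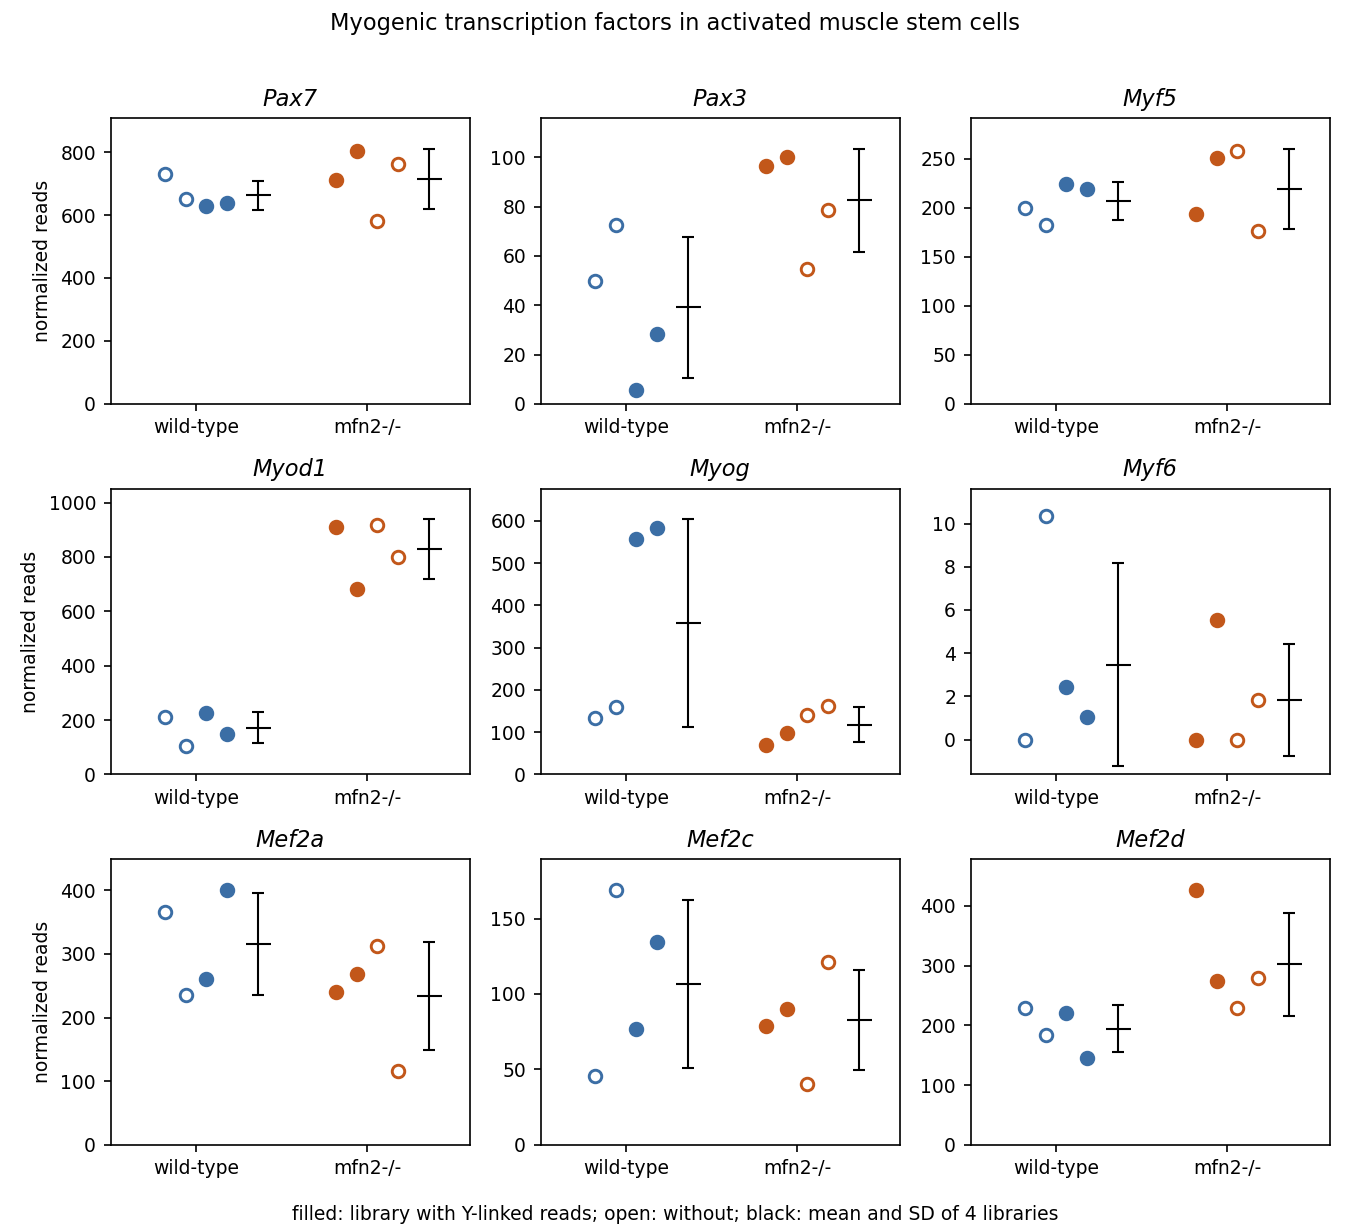
Normalized reads of each factor in each library, with 4 wild-type libraries (blue) and 4 mfn2-/- libraries (orange) in replicate order, filled where a library held Y-linked reads, and the mean and SD of 4 libraries in black. Each panel has its own linear axis. Myod1 is the factor whose groups do not overlap (104 to 225 against 683 to 918), and the 2 high wild-type values of Myog (558 and 584) are both from libraries with Y-linked reads.

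Pax7, which maintains the stem cell state, did not pass the test. Wild-type replicates 1 to 4 had 730.0, 651, 629.6 and 639 normalized reads, and mfn2-/- replicates 1 to 4 had 711, 803, 582 and 762. The highest and the lowest value both came from mfn2-/- libraries. The change was 0.10 (SE 0.19, 95% confidence interval -0.30 to 0.50, limma adjusted p 0.780), an interval that leaves out a 1.5-fold change in either direction. It was 0.25 within libraries with Y-linked reads and -0.05 within the others. Pax7 lies on chromosome 4 (139737062 to 139833528, minus strand). Positions are those of the GENCODE M21 annotation of GRCm38, since the measured values come without coordinates and the submitters' processing notes name the build mm9.

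Pax3, the paralog that drives muscle progenitors in the embryo and is used by a subset of adult stem cells, was far less abundant than Pax7. The 4 wild-type libraries had 50.0, 72.6, 5.72 and 28.3 normalized reads, and the 4 mfn2-/- libraries had 96.7, 100.3, 54.5 and 78.8. Wild-type replicate 3 stood lowest, with 7 reads, and only wild-type replicate 2 reached into the range of the mfn2-/- libraries. The group means of 39.2 ± 28.7 (wild-type) and 82.6 ± 20.9 (mfn2-/-) gave a change of 1.47 (SE 0.79, interval -0.22 to 3.17) that did not pass (limma adjusted p 0.273, exact permutation p = 0.0571). The change was 2.83 within libraries with Y-linked reads (limma adjusted p 0.117) and 0.12 within the others (adjusted p 0.955), where 8.56% and 9.83% of all genes were called, and the difference between these changes had an adjusted p of 0.462. Without wild-type replicate 3 the change fell to 0.76. Pax3 lies on chromosome 1 (78101267 to 78197134, minus strand).

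Myf5, the determination factor that many quiescent stem cells already transcribe, showed the smallest change of the 8. Its values were 200.1, 183, 225 and 219.6 in wild-type and 193, 250.4, 258 and 176 in mfn2-/- libraries, and the wild-type range fell wholly inside the mfn2-/- range. The change was 0.07 (SE 0.27, interval -0.51 to 0.65, limma adjusted p 0.896). Myf5 and Myf6 are neighbours on chromosome 10, both on the minus strand, with 6718 bases between them (Myf5 at 107482908 to 107486134 and Myf6 at 107492853 to 107494737).

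Myod1, the other determination factor, was 4.82-fold higher in mfn2-/- ASCs. The 4 wild-type libraries had 212, 104, 225 and 147 normalized reads, and the 4 mfn2-/- libraries had 910.1, 683, 918 and 801. Every mfn2-/- library stood about 3-fold or more above the highest wild-type library. The change of 2.32 (SE 0.27, interval 1.73 to 2.91) had a limma adjusted p of 0.000146 and an exact permutation p of 0.0286, and it was the 222nd largest rise of 11754 genes. It was 2.11 within libraries with Y-linked reads (adjusted p 0.00529) and 2.52 within the others (adjusted p 0.00307). The Myod1 log2 change was called in all alternative fits, at 2.10 to 2.52, including the scaling to totals without fibroadipogenic and tenocyte markers (2.26). Myod1 is a short gene on chromosome 7 (46376474 to 46379099, plus strand).

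Myog, which starts terminal differentiation and is a textbook target of MYOD and MEF2, did not follow Myod1. The 4 wild-type libraries had 134, 159, 558 and 584 normalized reads, and the 4 mfn2-/- libraries had 68.7, 98.0, 141 and 161. The wild-type libraries fell into a low and a high pair, and the low pair lay within the range of the mfn2-/- libraries. The change of -1.37 (SE 0.50, interval -2.45 to -0.28) did not pass (limma adjusted p 0.110, exact permutation p = 0.143). Over the other fits of both groups its adjusted p ran from 4.80e-05 with library weights to 0.289 without wild-type replicate 4, and DESeq2 (-1.62, adjusted p 0.0164) and the fit without wild-type replicate 1 (-1.73, limma adjusted p 0.0471) were among those that called it.

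The genotype difference of Myog was not the same in both kinds of library. Within libraries with Y-linked reads it was -2.78 (limma adjusted p 0.00107), and within the others it was 0.05 (adjusted p 0.952). The difference of these changes was -2.83 (SE 0.54, limma adjusted p 0.0325), past the threshold that 1.47% of all genes passed, and Myog was the only one of the 8 factors that did. Among wild-type libraries Myog was higher by 1.96 where Y-linked reads were present (limma adjusted p 0.0347), and 1.36% of all genes differed in that comparison. Among mfn2-/- libraries the same difference was -0.87 (adjusted p 0.345), and 1.37% of all genes differed. The deeper wild-type pair is also the pair with Y-linked reads, and these cannot be told apart.

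Because Myog is the factor whose genotype difference was not the same in both kinds of library, the 235 bases before its GENCODE start are shown, read from RefSeq (GRCm38.p6) at chr1:134289754-134289988, plus strand, 5′ to 3′. Capitals mark 3 matches found by a search of both strands.
Myog promoter: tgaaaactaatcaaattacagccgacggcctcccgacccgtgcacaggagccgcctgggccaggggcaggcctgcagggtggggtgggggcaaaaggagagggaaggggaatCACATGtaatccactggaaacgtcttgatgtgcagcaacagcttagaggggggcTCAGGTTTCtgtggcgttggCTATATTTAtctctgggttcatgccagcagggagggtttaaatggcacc
CACATG, 138 bases before the RefSeq start, matches the E-box CANNTG to which bHLH dimers bind. TCAGGTTTC, 84 bases before it, has the letters of the MEF3 element of muscle promoters. CTATATTTA, 64 bases before it, matches CTANNNNTA, the core of MEF2 sites. A further E-box, CAGTTG, lies 12 bases before the RefSeq start, inside the first exon of the GENCODE model, and is not printed. The matches do not overlap each other. Among 32851 promoter windows of 250 bases, 66.2% held CANNTG, 19.0% held CTANNNNTA and 0.387% held TCAGGTTTC. Most promoters thus held an E-box, and few held the MEF3 letters. RefSeq windows were at hand for 6 of the 9 genes, and Pax3, Myod1 and Myf6 were not among them. The gene itself lies at 134289989 to 134292548 on the plus strand.

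Myf6, the late differentiation factor also called MRF4, was close to absent. Wild-type libraries held 0, 10, 3 and 2 reads and mfn2-/- libraries 0, 7, 0 and 1 reads, and 6 of 8 libraries were at or under the floor of 3 reads. No difference was detectable at these counts.

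The MEF2 genes, which encode MADS-box partners of the bHLH factors, were all expressed and none passed the test. Mef2a had 366, 235, 261 and 401 normalized reads in wild-type and 240.0, 269, 313 and 115 in mfn2-/- libraries. The lowest value belonged to mfn2-/- replicate 4, the shallowest of its group, with 63 reads. The change of Mef2a was -0.49 (SE 0.34, interval -1.21 to 0.24, limma adjusted p 0.407), and without mfn2-/- replicate 4 the Mef2a log2 change fell to -0.18. Mef2c had 45.5, 169, 76.8 and 135 in wild-type and 78.7, 90.1, 40.5 and 121 in mfn2-/- libraries. The highest pair of values, 135 and 169, came from wild-type libraries, and the lowest pair held 1 library of each group. The change was -0.30 (SE 0.55, interval -1.48 to 0.88, adjusted p 0.783). Mef2d had 229.7, 184, 220.5 and 145 in wild-type and 427, 273, 229 and 279 in mfn2-/- libraries. The highest wild-type and the lowest mfn2-/- value of Mef2d differed by less than 1 normalized read, and every other mfn2-/- library stood above all wild-type libraries. Group means of 195 ± 38.8 (wild-type) and 302 ± 86.1 (mfn2-/-) gave a change of 0.61 (SE 0.29, interval -0.01 to 1.24) with a limma adjusted p of 0.207 and an exact permutation p of 0.0571. The change of Mef2d was 0.93 within libraries with Y-linked reads and 0.30 within the others.

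**Figure D2:**
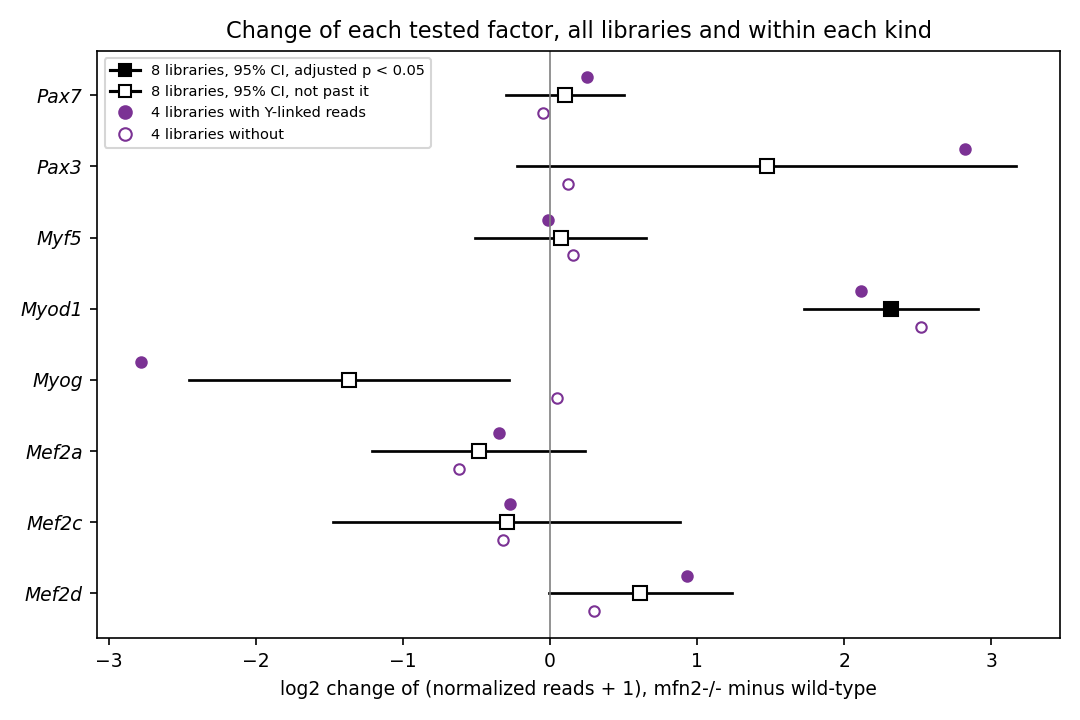
Log2 change of normalized reads + 1 (mfn2-/- minus wild-type) of the 8 tested factors, as squares with 95% confidence intervals for all 8 libraries and as circles within the 4 libraries with (filled) and without (open) Y-linked reads. Myod1 is the filled square and lies near 2.3 in both kinds, while the circles of Myog lie at -2.78 and 0.05.

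Levels of different genes were set side by side per kb of merged exons, also normalized reads. In wild-type ASCs Myog was highest (240 ± 164 per kb), followed by Pax7 (113 ± 7.83), Myf5 (99.2 ± 9.25) and Myod1 (92.2 ± 30.4). The ranges of these 4 neighbours overlapped, so their order was not resolved. Mef2d (32.5 per kb) and Mef2a (21.5) came next, below the range of Myod1, and Mef2c (6.78), Pax3 (6.33) and Myf6 (2.75) were lowest. In mfn2-/- ASCs Myod1 was highest at 445 ± 59.3 per kb, with its lowest library (367) above the highest Pax7 library (137). Pax7 (122 ± 16.4), Myf5 (105 ± 19.6), Myog (78.5, with a range of 45.9 to 108) and Mef2d (50.5 ± 14.4) followed, each overlapping the next. Mef2a (16.0), Pax3 (13.3), Mef2c (5.25) and Myf6 (1.46) were lowest. Merged exons count all isoforms, which lowers the values of Mef2a (14681 bases) and Mef2c (15715 bases) per kb more than those of single-isoform genes such as Myod1 (1861 bases).

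Ratios of a pair of factors in the same library depend on the size factor only through the pseudocount of 1, and they set the changes of 2 factors against each other. Myod1 stood at 0.159 to 0.357 normalized reads per read of Pax7 in wild-type and at 0.851 to 1.58 in mfn2-/- libraries. The log2 ratio was higher by 2.22 in mfn2-/- ASCs. Per read of Myf5, Myod1 stood at 0.568 to 1.06 in wild-type and at 2.73 to 4.71 in mfn2-/- libraries, a difference of 2.25. Myog per read of Myod1 went the other way. It was 0.634, 1.53, 2.48 and 3.97 in wild-type replicates 1 to 4 and 0.0755, 0.143, 0.154 and 0.201 in mfn2-/- replicates 1 to 4, a difference of -3.69 on the log2 scale. These ratios overlapped between groups in none of the 3 cases, and each had an exact permutation p of 0.0286, which is 0.0571 after adjustment over the 6 ratios compared. None of the 3 thus passed 0.05, and with 3 of 6 ratios at the smallest possible p none could. All 3 contain Myod1 and so share its change of 2.32. The Myog to Myod1 ratio was lower by 4.90 on the log2 scale within libraries with Y-linked reads and by 2.48 within the others. Within the others Myod1 changed by 2.52 and Myog by 0.05, so there the lower ratio followed the rise of Myod1.

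The other ratios overlapped between groups. Myf5 to Pax7 differed by -0.03 (exact permutation p = 0.914). Mef2c to Mef2a differed by 0.19 (exact p = 0.686, adjusted 0.823). Mef2d to Mef2a was higher by 1.10 in mfn2-/- ASCs (exact p = 0.0857, adjusted 0.129), so a shift between the MEF2 paralogs did not pass. Among the determination factors Myod1 alone was called by limma, and Myf5 kept its proportion to Pax7 within the spread between libraries.

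**Figure D3:**
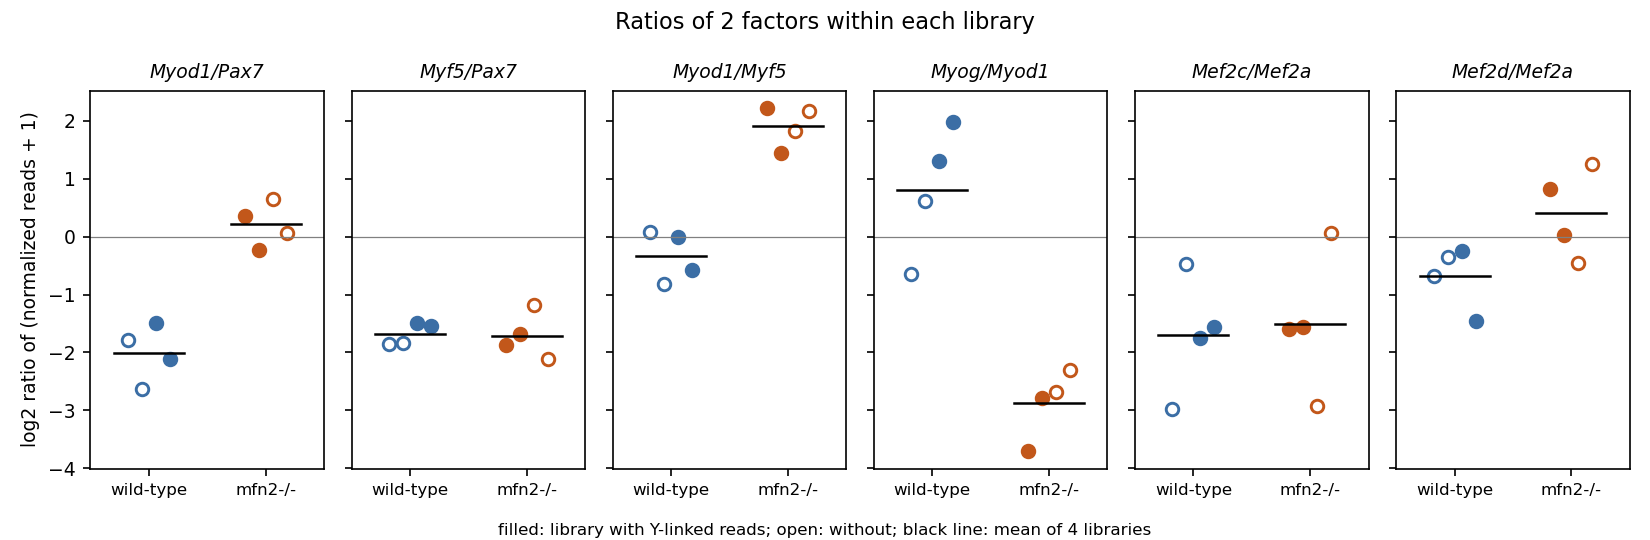
Log2 ratio of normalized reads + 1 for 6 pairs of factors, each point a library (blue wild-type, orange mfn2-/-, filled with Y-linked reads) and each line the mean of 4 libraries. The groups separate for Myod1/Pax7, Myod1/Myf5 and Myog/Myod1, and they overlap for Myf5/Pax7, Mef2c/Mef2a and Mef2d/Mef2a.

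The genes whose pattern over the 8 libraries was most like that of a factor were looked up in 7640 genes whose mean reached 50. For Myod1 they were Ccdc141 (Pearson r 0.995 of log2 values), Rbpj (0.981) and Bcl3 (0.978). Ccdc141 went from 72.7 ± 12.4 to 164 ± 11.4 normalized reads, Rbpj, the DNA-binding partner of activated Notch, from 940 ± 156 to 1956 ± 299, and Bcl3, an atypical inhibitor of the nuclear factor kappa B family, from 84.3 ± 16.1 to 373 ± 51.9. The 8 points share their libraries, depths and 2 genotypes, and these values are a description with no test. For Pax7 the closest were Ccdc136 (0.934), B230208H17Rik (0.926) and Nppc (0.923). For Myog they were Spg21 (0.978, 243 ± 119.9 in wild-type and 121 ± 26.6 in mfn2-/- libraries) and 2 genes whose symbols a spreadsheet had turned into dates (0.978 and 0.971).

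Partners and inhibitors of the bHLH factors moved in both directions. Of 20 listed genes 19 were tested, 2 were called higher and 2 lower (21.1%, beside 10.4% of all genes), with a median change of -0.04. Id3 rose from 322 ± 68.7 to 912 ± 478 normalized reads (1.37, limma adjusted p 0.0209) and Id2 from 47.3 ± 30.6 to 198 ± 87.0 (2.18, adjusted p 0.0297). ID proteins hold E proteins away from MYOD and so restrain it. The rise of Id2 was 1.38 within libraries with Y-linked reads (limma adjusted p 0.334) and 2.98 within the others (adjusted p 0.0243). The difference between these did not pass (limma adjusted p 0.542). The rise of Id3 was 2.29 within libraries with Y-linked reads and 0.45 within the others, a difference that passed (limma adjusted p 0.0253). Its call was lost without any one of replicates 3 and 4 of the wild-type and replicates 1 and 2 of the mfn2-/- group (adjusted p up to 0.0658), and that of Id2 without any one of replicates 1 and 2 of the wild-type and replicates 1, 2 and 4 of the mfn2-/- group (up to 0.0900). Tcf4, an E protein (1908 ± 210 and 1293 ± 331, adjusted p 0.0902), and Bhlhe40, a repressor (1338 ± 390 and 1849 ± 385, adjusted p 0.213), were the most abundant genes of the list and were not called.

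Twist1 and Twist2, mesenchymal bHLH factors that block MYOD, were the lower pair. Both reached the mean of 10 that the test required only through wild-type libraries, and Twist2, at 0 in mfn2-/- libraries, could be called only lower. Twist1 went from 116 ± 33.2 to 5.75 ± 7.87 normalized reads (-5.07, limma adjusted p 0.0124). Since 2 of the 4 mfn2-/- libraries were at or under 3 reads, the Twist1 log2 change depended on the pseudocount, with -6.78 for 0.1 and -3.08 for 10, both called. It was -3.07 within libraries with Y-linked reads (adjusted p 0.205) and -7.07 within the others (adjusted p 0.00728). Twist2 had 26.3 ± 16.6 in wild-type and 0 reads in all 4 mfn2-/- libraries. The wild-type mean of Twist2 was 8.71-fold the mean floor (3 reads per library) of the mfn2-/- libraries. Wild-type replicate 1, at 6.82 normalized reads, was at its own floor. Twist2 was called neither within libraries with Y-linked reads (-4.89, limma adjusted p 0.0683) nor within the others (-4.09, adjusted p 0.0992). The call of Twist2 was lost in 5 of 8 fits that left out a library (replicates 3 and 4 of the wild-type and replicates 1, 2 and 3 of the mfn2-/- group, adjusted p up to 0.0632). These falls went with those of the fibroadipogenic markers (4.90 to 6.52% against 0.217 to 0.297% of the total) and tenocyte markers (10 of 10 lower), whose part in them was not tested.

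Homeobox factors and their EYA cofactors act upstream of Myf5, Myod1 and Myog in the embryo. Of 18 tested, 0 were called higher and 4 lower (22.2%), with a median of -0.98 beside -0.16 over all genes. The lower genes were Meox1 (97.8 ± 33.2 to 3.15 ± 5.78, limma adjusted p 0.00817), Eya2 (119.8 ± 26.3 to 16.8 ± 29.2, adjusted p 0.0315), Meox2 (176 ± 61.6 to 10.8 ± 8.10, adjusted p 0.0113) and Pitx1 (25.2 ± 20.8 to 0 in all mfn2-/- libraries, adjusted p 0.0325). Wild-type replicates 1 to 4 held 50.0, 34.2, 12.2 and 4.27 normalized reads of Pitx1. Their mean was 8.34-fold the mean floor of the mfn2-/- libraries (3.02), and the lowest value was close to that floor. The call of Eya2 was lost without any library but mfn2-/- replicate 4 (adjusted p up to 0.0875), that of Pitx1 without replicate 2 or 3 of the wild-type or replicate 1, 2 or 3 of the mfn2-/- group (up to 0.0867), and that of Meox2 without replicate 3 or 4 of the wild-type (up to 0.0529). In other settings that kept both kinds of library, Eya2 was not called in 4 of 15 (adjusted p up to 0.131) and Pitx1 in 5 of 14 (up to 0.237). Meox2 was not called in 1 of 15 (0.0574), and Meox1 was called in each. Within libraries with Y-linked reads Meox1 was called (-6.23, limma adjusted p 0.0336). Meox2 (adjusted p 0.118), Eya2 (0.148) and Pitx1 (0.255) were not. Within the others Meox2 (-5.24, adjusted p 0.0291) and Pitx1 (-5.41, adjusted p 0.0342) were called. Meox1 (-4.63, adjusted p 0.0883) and Eya2 (-4.09, adjusted p 0.170) were not. The same fall of connective tissue markers stood beside these 4, and its part was not tested. Sox8, a transcription factor gene of the list, had 311 ± 162 and 115 ± 19.0 (-1.27, adjusted p 0.0663) and was called without wild-type replicate 1 (adjusted p 0.0134). It was also called in 6 of 15 other settings. Within libraries with Y-linked reads Sox8 was called (-1.89, limma adjusted p 0.0178), and within the others it was not (-0.65, adjusted p 0.331).

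Among genes that act on MEF2, or on MYOD at chromatin, 1 gene of each list was called. Of 17 tested MEF2 partners and repressors (5.88% called) it was Sik1, a kinase that inactivates the class IIa deacetylases holding MEF2 silent (1057 ± 433 to 2259 ± 466, 1.15, limma adjusted p 0.0123). The Sik1 log2 change was 1.75 within libraries with Y-linked reads (adjusted p 0.000922) and 0.55 within the others (adjusted p 0.163), and without the variance trend the call was lost (adjusted p 0.105). The median of this list was 0.20. The deacetylases Hdac4 (488 ± 76.4 and 523 ± 184) and Hdac5 (376 ± 39.8 and 543 ± 125) were not called (adjusted p 0.944 and 0.175). Of 18 chromatin cofactors of MYOD (5.56% called) it was the acetyltransferase gene Ep300 (989 ± 89.1 to 1617 ± 337, 0.69, adjusted p 0.0348), and the median was 0.02. This call was lost without any library but mfn2-/- replicate 4 (adjusted p up to 0.107). The related Crebbp (1804 ± 373 and 2559 ± 201, adjusted p 0.0985) and the methyltransferase gene Kmt2d, listed as Mll2 (2703 ± 385 and 2029 ± 182, adjusted p 0.160), were not called.

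Differentiation targets of MYOD, MYOG and MEF2 were called in both directions. Of 34 listed genes 30 were tested, 3 were called higher and 1 lower (13.3%, near the 10.4% of all genes), 22 had a positive change, and the median was 0.44 beside -0.16 over all genes. Des, the intermediate filament desmin, rose from 2156 ± 888 to 7969 ± 2942 normalized reads (1.91, limma adjusted p 0.00188). Cdkn1a, the cell cycle inhibitor p21, rose from 192 ± 94.6 to 612 ± 181 (1.74, adjusted p 0.00920), and Myom1, a protein of the sarcomere M band, from 48.9 ± 27.0 to 166 ± 54.4 (1.91, adjusted p 0.0468). The call of Myom1 was lost without any library but wild-type replicate 1 (adjusted p up to 0.113). Cdkn1c, the related inhibitor p57, fell from 1691 ± 876 to 519 ± 265 (-1.68, adjusted p 0.0161), a call that needed wild-type replicates 3 and 4 and mfn2-/- replicate 3 (adjusted p up to 0.0559 without one of them). The cell cycle inhibitors of the list thus changed in opposite directions. Fgfr4 (1515 ± 167 and 1840 ± 434) and Acta1 (904 ± 306 and 1249 ± 516) were the most abundant targets not called (adjusted p 0.459 and 0.395).

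Myofiber markers, 4 of which are on this list (Acta1, Ckm, Mylpf and Tnnt3), took 0.0474 to 0.105% of a wild-type library and 0.111 to 0.139% of a mfn2-/- library, with 3 of 13 tested called higher, and their part in the targets' change was not tested. The median change of the targets was -0.01 within libraries with Y-linked reads and 1.05 within the others, where the median of all genes was -0.16 in both. Des was called in both kinds (1.99 and 1.83). Cdkn1a (2.67, limma adjusted p 0.000720, and 0.82, adjusted p 0.158) and Cdkn1c (-2.63, adjusted p 0.00171, and -0.72, adjusted p 0.255) were called within libraries with Y-linked reads and not within the others, and Myom1 in neither kind (1.36, adjusted p 0.454, and 2.45, adjusted p 0.0802). The difference between kinds had limma adjusted p-values of 0.126 for Cdkn1a, 0.168 for Cdkn1c and 0.715 for Myom1. Among wild-type libraries 19 of 30 targets lay higher where Y-linked reads were present, with a median of 0.79 beside 0.11 over all genes. The 2 called by limma were both lower, Des (-1.05, limma adjusted p 0.00555) and Itga7 (-1.29, adjusted p 0.0264), the latter named after its value was seen.

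**Figure D4:**
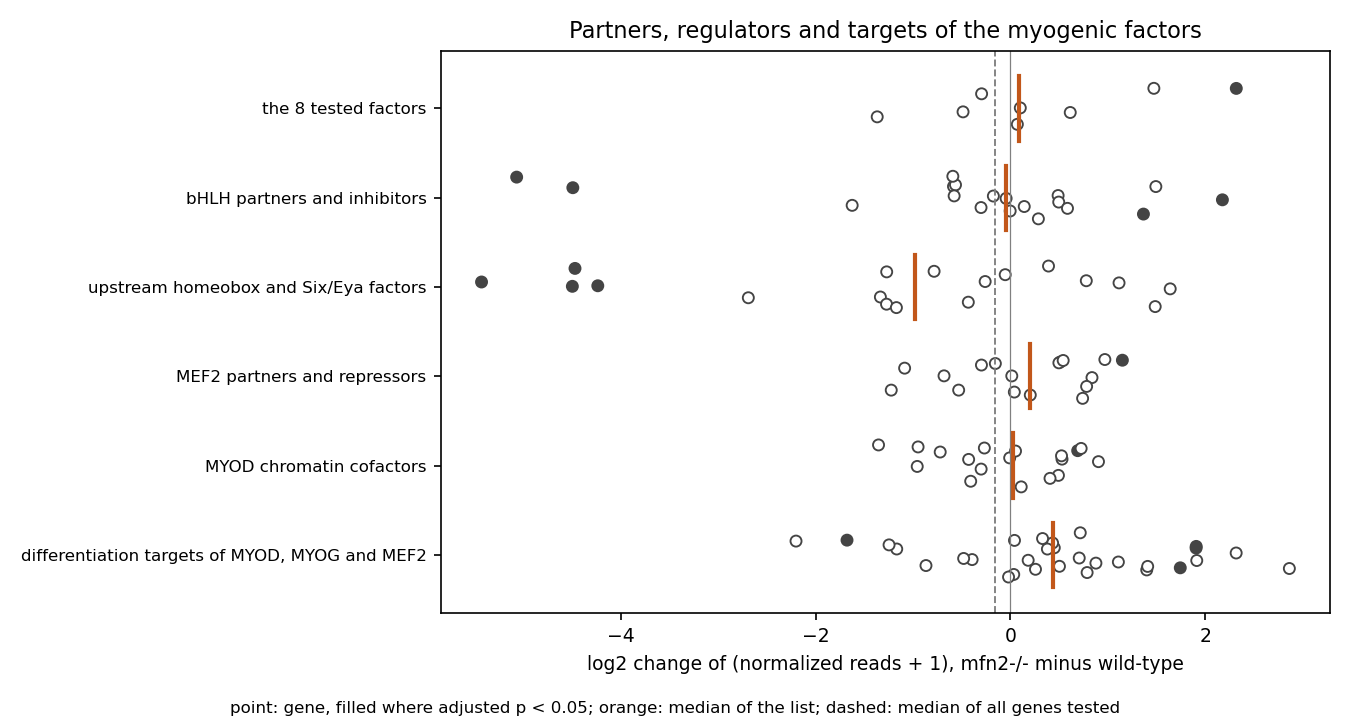
Log2 change of normalized reads + 1 (mfn2-/- minus wild-type) of each tested gene of the factors and of 5 lists, filled where the limma adjusted p is under 0.05, with the median of each list (orange) and of all genes (dashed, -0.16). The filled points far to the left are Twist1, Twist2, Meox1, Meox2, Eya2 and Pitx1, and those of Twist2 and Pitx1 are fitted against a group at 0.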

How the data were processed

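Per the labels, a SMARTer pico kit, which keeps strand, turned total RNA of the sorted cells into libraries. The submitters' processing notes name Trim Galore, HISAT2, featureCounts, DESeq2 and the build mm9, without versions. The deposited table gives 1 normalized signal per gene and library, for which the authors scaled reads by a size factor per library. Dividing by the smallest step of each library gave whole numbers for 100% of the values (tolerance 0.001), so whole reads were recovered for depth and for the count-based tests. Amplified copies cannot be told from separate molecules.

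Genes with a mean of at least 10 (11754) entered a limma fit (version 3.58.1, R 4.3.3). It used log2(value + 1), genotype alone and a mean-dependent prior variance (trend), and two-sided p-values were adjusted by Benjamini-Hochberg (threshold 0.05). Changes within library kinds and their difference came from 1 limma fit of 4 cell means. For single values and ratios the exact permutation test over 4 against 4 libraries was used, two-sided. Alternatives were pseudocounts of 0.1 and 10, other filters, other scalings, a replicate block, Y-linked reads as a term, limma without its trend or with weights per library, leaving out each library, edgeR 4.0.16 and DESeq2 1.42.0 on recovered reads and, chosen after seeing the data, 3 against 3 libraries without the shallowest of each group. The fits were tested on simulated data. Of each list, up to 4 called genes with the largest change and up to 2 uncalled genes of highest mean are named, and for Pax7, Myod1 and Myog the 3 most correlated genes, and 1 gene that this rule names is not reported here. The factors, lists and ratios were chosen with earlier results of these data known. Replicate numbers are not said to pair the libraries, and the main fit used no pairing.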

Additional observations from a re-analysis of the deposited data

Results flagged for a closer look

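The genotype difference of 3 named genes differed between libraries with and without Y-linked reads by the limma test of that difference, which 173 of 11754 genes passed. Myog differed by -2.83, Id3 by 1.84 (limma adjusted p 0.0253) and Bhlhe40 by 1.18 (adjusted p 0.0420). Bhlhe40 changed by 1.08 within libraries with Y-linked reads and by -0.10 within the others.

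The most extreme library of each group of 4 was compared with the others for 80 groups of values, and 2 passed Dixon's 95% critical value, where chance flags about 1 in 20 groups. Meox1 was at 11.8 normalized reads in mfn2-/- replicate 3 against at most 0.79 in the other mfn2-/- libraries. Eya2 was at 60.5 in mfn2-/- replicate 4 against a far lower range in the other mfn2-/- libraries (0 to 6.0). No value of the 9 factors or of their ratios passed.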

How the results depend on the processing

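Myod1 was called in all alternatives (2.10 to 2.47 with 1 library left out). The Myog log2 change also passed with the replicate block (-1.37, adjusted p 0.0396), library weights (-2.24), DESeq2 (-1.62), the 3 against 3 libraries (-1.91) and within libraries with Y-linked reads (-2.78), and it reversed within the others (0.050). With 1 library left out it ran from -1.73 to -1.03. Library weights also called Pax3 (2.23, adjusted p 0.00821) and Mef2d (0.73, adjusted p 0.0273). These weights ran from 0.167 to 3.75. Mef2a ran from -0.66 to -0.18 with 1 library left out. Without the trend the calls of Sik1 (adjusted p 0.105) and Cdkn1a (adjusted p 0.0694) were lost. Apart from leaving out a library, Ep300 was not called in 5 of 15 settings (adjusted p up to 0.176) and Myom1 in 5 of 15 (up to 0.0851). Id2 was not called in 2 of 15 (up to 0.0745) and Twist2 in 2 of 14 (up to 0.0615). Id3 (0.119) and Cdkn1c (0.111) were each not called in 1 of 15. Of genes not called in the main fit, Sox8 was called in 6 of 15, Tcf4 in 3 of 15 and Crebbp in 2 of 15. Bhlhe40, Hdac5 and Fgfr4 were each called in 1 of 15. Small changes reversed for Pax7 (-0.0021 with quantile normalization, -0.050 within libraries without Y-linked reads), Myf5 (-0.013 within libraries with Y-linked reads, -0.012 to 0.17 with 1 library left out), Mef2c (-0.64 to 0.0068 with 1 left out), Hdac4 (-0.027 with quantile normalization, -0.013 with totals without connective tissue markers, -0.57 without Y-linked reads, -0.13 to 0.27 with 1 left out), Acta1 (-0.14 with library weights, -0.027 with 3 against 3, -0.38 with Y-linked reads), Bhlhe40 (-0.10) and Fgfr4 (-0.12), both without Y-linked reads. The ratio Myog/Myod1 was -4.90 and -2.48 within the kinds. The count of factors called was 1, and 2 with the replicate block, DESeq2 and 3 against 3, 4 with library weights, and 1 to 2 with 1 left out. Over all alternatives, calls higher and lower ran from 0 to 3 and 1 to 4 for bHLH partners, 0 to 1 and 1 to 6 for homeobox and EYA factors, 0 to 3 and 0 to 1 for MEF2 partners, 0 to 5 and 0 for chromatin cofactors, and 1 to 6 and 0 to 2 for differentiation targets.

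The count of 1217 genes called became 633 without the trend and 3037 with library weights, and ran from 670 to 1307 with 1 library left out (670 without wild-type replicate 3, 749 without wild-type replicate 4). Higher genes were 38.5% of those called, 17.9% without the trend and 57.5% with upper-quartile scaling. The median change of all genes was -0.16, 0.05 with upper-quartile scaling and 0.13 with quantile normalization. Deviations of libraries that share a replicate number correlated at -0.11 to 0.04, and those with different numbers at -0.058 to 0.119. These few libraries cannot show whether a pairing existed, and the block has no stated design behind it. The block gave 1043 calls, and on recovered reads edgeR gave 1158 and DESeq2 1738. The cause of these differences was not tested. Comparisons of Myf6 are limited by its low counts, at most 10 reads in a library.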
